A study of Mus musculus with 8 samples.

Results

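The Igk locus holds the gene segments of the kappa light chain of the mouse antibody, and its RNA was examined here segment by segment in sorted pre-B cells. The deposited RNA-seq files join the exons of the locus into composite transcripts, that is, transcripts of over 40 exons that span over 1 Mb. Every exon line of these composites within the locus was taken as a member, 203 lines of the 1278 that composite immunoglobulin transcripts hold in all. They ran over 3.17 Mb of chromosome 6 in the mm10 build, with 86 lines on the strand of the J and C segments and 117 on the other. Of the 203 lines, 166 lay within an annotated segment and were joined into 110 segments: 105 variable (Igkv) segments, of which 13 are pseudogenes and 1 of these, Gm42667, has no Igkv name, 4 joining (Igkj) segments and the constant exon Igkc. The other 37 lines were short, with a median of 10 bp and a maximum of 26 bp, and 8 of them were tested among all features. GENCODE lists 102 Igkv genes, 74 Igkv pseudogenes and 5 Igkj segments here, and Igkj3 was the joining segment without a line. With a mean of at least 1 on the TPM scale, 101 Igkv segments (9 of them pseudogenes), the 4 Igkj segments and Igkc entered the test, while Igkv4-65, Igkv3-12-1, Igkv3-11 and Igkv3-6 did not. Igkv4-65 and Igkv3-6 were listed at 0 in all 4 libraries, and the other two had a value in 1 Dido1∆E16 library each.

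Pre-B cells were sorted by surface markers, as IgM- cells, from the bone marrow of C57BL/6 mice aged 6 to 10 weeks, and each library was made from a pool of mice. Dido1∆E16 mice carry 1 floxed and 1 deleted allele of Dido1 exon 16, a Cre-inducible EYFP reporter and the Vav1-iCre transgene, which is active in blood-forming cells from the stem cell onward. Controls, labelled wild type and called WT here, were littermates with 1 floxed and 1 intact allele, the same reporter and the same Cre, so that Cre activity was shared by both groups. There were 2 libraries per genotype. With 2 against 2 an exact two-sided permutation test cannot go below p = 0.33, and p-values measure the spread between these pools.

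A kappa gene is built when the RAG recombinase joins 1 Igkv segment to 1 Igkj segment, which is then spliced to Igkc. A V segment on the strand of the J segments is joined by deletion of the DNA in between, and a V segment on the opposite strand by inversion. Before joining, unrearranged V segments and the region upstream of Igkj1 give germline transcripts, so V reads in pre-B cells come from both germline and rearranged alleles. RAG binds recombination signals, each a heptamer and a nonamer, with a short spacer beside V and a longer one beside J.

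The signals beside the segments named most often here are shown, because they are the sites at which these segments are joined. They were read from the mm10 genome in the direction of transcription, with heptamer and nonamer in capitals. For V segments the last 12 coding bases stand before the signal. The first 4 made up more of the Igkv RNA in each Dido1∆E16 pool than in either WT pool, and the last 4 less.
Igkv2-137, chr6:67556205-67556244, + strand: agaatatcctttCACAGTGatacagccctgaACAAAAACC
Igkv1-135, chr6:67610497-67610536, + strand: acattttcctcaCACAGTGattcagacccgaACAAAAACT
Igkv3-12, chr6:70518838-70518877, + strand: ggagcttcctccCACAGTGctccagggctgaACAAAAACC
Igkv3-7, chr6:70608025-70608064, + strand: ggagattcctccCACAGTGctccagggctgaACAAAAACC
Igkv14-126, chr6:67896631-67896670, + strand: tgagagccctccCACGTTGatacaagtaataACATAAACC
Igkv10-96, chr6:68631935-68631974, - strand: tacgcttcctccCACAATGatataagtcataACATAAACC
Igkv4-90, chr6:68807151-68807190, - strand: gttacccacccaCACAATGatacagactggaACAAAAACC
Igkv4-74, chr6:69184798-69184837, - strand: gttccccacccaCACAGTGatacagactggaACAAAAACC
Beside the J segments the order is turned, with the nonamer first and the bases up to the annotated end of J last. Spacer and J bases are in lower case. The annotation runs further for Igkj2 and Igkj5 than for Igkj1 and Igkj4, so the last bases there need not be coding.
Igkj1, chr6:70722523-70722599, + strand: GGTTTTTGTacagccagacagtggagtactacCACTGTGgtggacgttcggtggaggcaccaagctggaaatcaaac
Igkj2, chr6:70722877-70722958, + strand: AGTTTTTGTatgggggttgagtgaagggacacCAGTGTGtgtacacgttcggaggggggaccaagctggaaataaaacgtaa
Igkj4, chr6:70723508-70723585, + strand: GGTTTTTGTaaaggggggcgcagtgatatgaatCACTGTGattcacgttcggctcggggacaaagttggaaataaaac
Igkj5, chr6:70723847-70723927, + strand: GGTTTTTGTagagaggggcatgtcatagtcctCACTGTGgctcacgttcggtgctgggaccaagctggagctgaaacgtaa

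The labels were first checked on Dido1, whose exon 16 encodes the C terminus particular to the Dido3 protein. The exon 16 line (chr2:180657963-180662583, 4621 bp) had a value of 24.6 and 21.8 in the WT pools against 0.295 and 0.0843 in the Dido1∆E16 pools. Both Dido1∆E16 libraries were thus far below both WT libraries, as their labels say. The other exons of the same transcript stood at 49.0 and 50.9 in WT against 32.4 and 42.6 in Dido1∆E16 pools. The TPM of all Dido1 transcripts together went the other way, with 44.3 and 46.0 in WT against 81.6 and 87.2 in Dido1∆E16 pools. Values here and for all segments are the deposited coverage of a line, averaged by length over the lines of a segment and multiplied by the library's ratio of TPM to coverage, which was 1.61 and 2.14 in WT against 1.54 and 2.16 in Dido1∆E16 pools. They are therefore levels per length on the TPM scale. Read counts were not part of these files. Coverage summed over all transcripts came to 1581 and 1121 Mb in WT and 1635 and 1174 Mb in Dido1∆E16 libraries, so that replicate 2 of each genotype was the shallower.

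Markers were then set beside the sort. Small pre-B genes, Rag1, Rag2, Il2ra, Cd2 and Btg2, were present in every library, with summed TPM of 2717 and 3554 in WT and 2782 and 2577 in Dido1∆E16 cells, and none of the 5 separated the genotypes. The 6 pro-B and large pre-B markers summed to 526 and 117 in WT against 2315 and 1401 in Dido1∆E16 pools, with Vpreb1 the most abundant, and 5 of 6 were above both WT libraries in both Dido1∆E16 libraries (all gene sums 26.8%). Immature and mature B markers summed to 5562 and 5351 in WT against 5828 and 6719 in Dido1∆E16 pools. Cd74 was the most abundant of them, with 2687 and 2665 in WT against 3724 and 4389 in Dido1∆E16 pools. Of the 9, 5 were below WT in both Dido1∆E16 libraries (all gene sums 16.5%) and 2 above (all gene sums 26.8%). Among those below was Ighd, with 546 and 438 in WT against 223 and 155 in Dido1∆E16 pools. Plasma cell markers, led by Xbp1, summed to 244 and 280 in WT against 224 and 225 in Dido1∆E16 pools, with Tnfrsf17 listed at 0 throughout. T and NK cell markers came to at most 19.2 in any library, with Nkg7 the most abundant, and Cd3e, Cd4 and Cd8a were listed at 0. Neutrophil and monocyte markers, led by S100a9, summed to 229 and 1977 in WT against 964 and 8574 in Dido1∆E16 pools. Erythroid markers, led by Hba-a1, summed to 247 and 755 in WT against 537 and 6851 in Dido1∆E16 pools. Replicate 2 was the higher library for both within each genotype. The part of these other cells in the Igk values was not tested, and in such pooled RNA fewer kappa-transcribing cells and less kappa RNA per cell cannot be told apart.

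Igkv RNA was lower in Dido1∆E16 cells as a sum and for most segments, although no single segment passed the test. The 105 Igkv segments with a line summed to 7621 and 10671 in WT against 7121 and 6788 in Dido1∆E16 pools. Both Dido1∆E16 sums lay below both WT sums, by 1.32-fold in the means, and the WT libraries differed more from each other than WT replicate 1 did from either Dido1∆E16 library (exact permutation p = 0.33). By segment the fitted log2 fold change had a median of -0.43 and ran from -1.84 to 1.15, with 90 of 101 below 0, against 44.9% of all 16742 features tested. Both ends of that range were low pseudogenes with values of 0, Igkv4-83 and Igkv12-42, and depend on the pseudocount: with 0.1 in place of 1 they came to -4.70 and 2.70. The median over all features was 0.05.

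No Igkv segment was called by limma (a call needed an adjusted p below 0.05 and a log2 fold change of 0.6 or more in either direction), where 0.293% of all features were called, 0.0776% as lower in Dido1∆E16 cells. The smallest adjusted p was 0.23, for Igkv4-74. At an unadjusted p under 0.05, 27 of 101 segments passed, all of them lower in Dido1∆E16 cells, against 3.51% of all features in that direction and 6.53% in the other. Counted over all Igk segments, the number was also 27. It was 31 with median centring, 16 without the intensity trend of the fit and 3 after division by the summed Igkv value. In 58 of 101 both Dido1∆E16 values lay below both WT values (all features 16.2%), and in 3 they lay above (all features 23.6%). The size of the shift rested largely on WT replicate 2: without it the median was -0.19 and 72 segments were lower. The counts below and above were then 60 and 20. With 1 library against 2 it is easier not to overlap, so the shares of all features above do not apply to these counts. Without WT replicate 1 the median was -0.65 and 96 segments were lower.

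**Figure D1:**
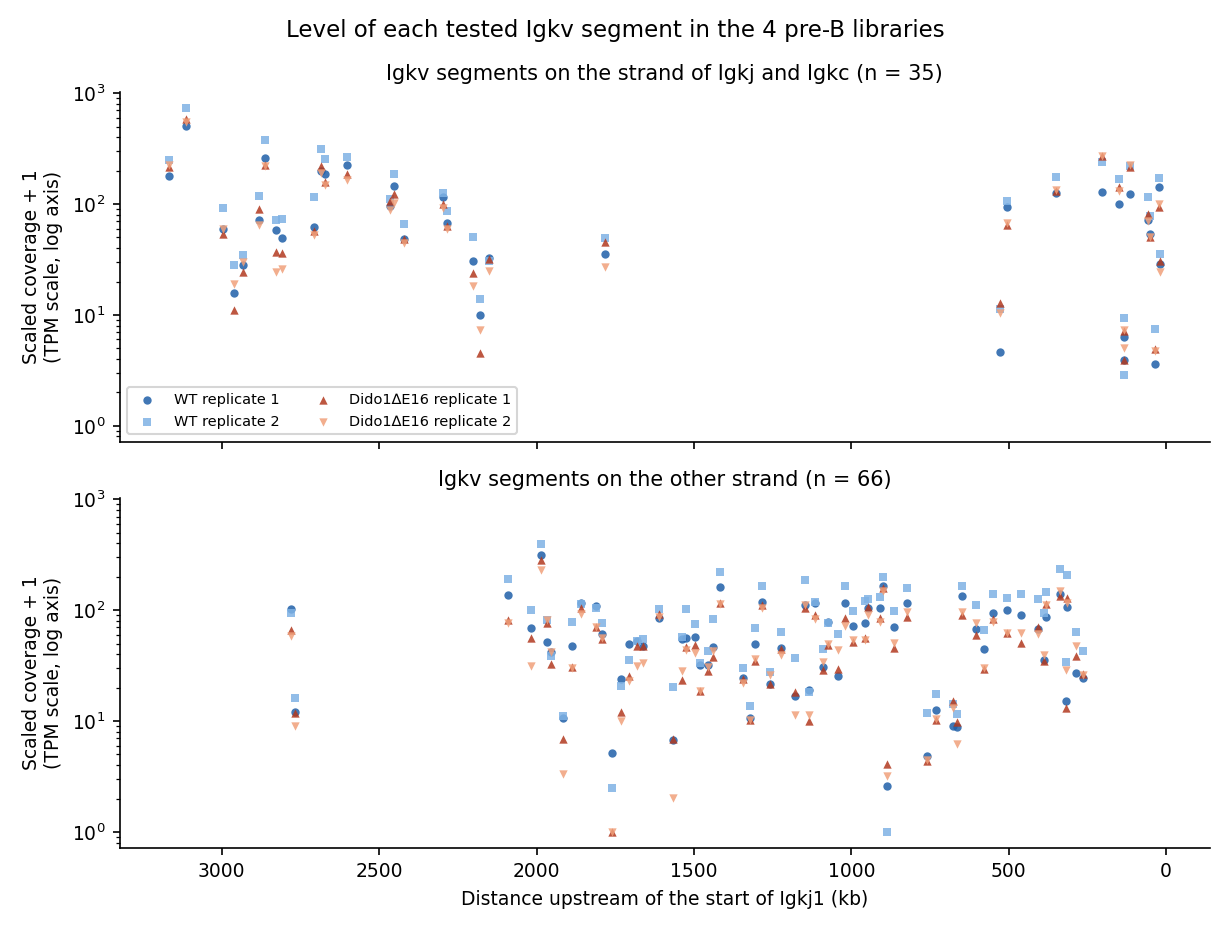
Level of each tested Igkv segment (scaled coverage plus 1 on the TPM scale, log axis) against its distance upstream of Igkj1 in kb, with 35 segments on the strand of Igkj and Igkc in the upper panel, 66 on the other strand in the lower panel, and 1 point per library. Levels spread widely at every distance, and the distal end is filled mostly by the J strand and the middle by the other strand.

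The levels of the Igkv segments themselves were very unequal. By the mean of the 4 libraries they ran from 1.41 to 593, with a median of 61.2. The highest was Igkv1-135, which lies 3112 kb upstream of Igkj1, near the far end of the locus. It stood at 505 and 736 in WT against 578 and 553 in Dido1∆E16 pools, and the groups overlapped (log2 fold change -0.11). Igkv19-93 followed with 315 and 391 in WT against 283 and 231 in Dido1∆E16 pools, both below WT (log2 fold change -0.46, SE 0.18). Igkv17-127 stood at 261 and 376 in WT against 224 and 219 in Dido1∆E16 pools, again below WT (log2 fold change -0.50). Without WT replicate 2 the log2 fold changes of Igkv19-93 and Igkv17-127 were -0.30 and -0.24. Of the 10 highest segments of each library, 6 were common to all 4 libraries, 8 to the WT libraries and 9 to the Dido1∆E16 libraries.

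The other segments among the 10 highest by mean went different ways. Igkv1-117 stood at 225 and 266 in WT against 187 and 165 in Dido1∆E16 pools, and Igkv9-120 at 184 and 255 against 155.5 and 146. Both were below WT in both libraries, with log2 fold changes of -0.48 and -0.52. Igkv5-43 (164 and 199.8 in WT, 158 and 147 in Dido1∆E16 libraries) was also below WT, by a log2 fold change of -0.25. WT replicate 2 weighed on these values: without it Igkv9-120 stood at -0.29 and Igkv5-43 at -0.11. Igkv17-121 overlapped between the groups, with 197 and 311 in WT against 219 and 189 in Dido1∆E16 pools. So did Igkv2-137, the V segment farthest from the J segments at 3167 kb, with 179 and 249 in WT against 214 and 226 in Dido1∆E16 pools. At the other end, Igkv3-1, 18.7 kb upstream of Igkj1, had a low level of 27.6 and 34.8 in WT against 29.4 and 23.1 in Dido1∆E16 pools, and overlapped too.

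Igkv3-12 and Igkv3-7, members of the Igkv3 family at 204 and 115 kb from Igkj1, were the remaining pair. Igkv3-12 stood at 128 and 239 in WT against 269.9 and 267 in Dido1∆E16 pools (log2 fold change 0.62, SE 0.35, adjusted p = 0.71 by limma). Its log2 fold change was 0.17 without WT replicate 1 and 1.07 without WT replicate 2. Both Dido1∆E16 values lay above both WT values, but the WT libraries differed from each other by more than WT replicate 2 did from Dido1∆E16. Igkv3-7 stood at 122 and 219.5 in WT against 216 and 226 in Dido1∆E16 pools, and the groups overlapped (log2 fold change 0.43, and 0.0095 and 0.85 without WT replicates 1 and 2). The other segments with both Dido1∆E16 values above WT were pseudogenes of low level, Igkv12-42 with 1.61 and 0 in WT against 3.08 and 2.16, and Igkv3-8 with 2.90 and 1.86 against 2.92 and 4.05.

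Among segments whose groups did not overlap, 4 had the largest differences below WT. Igkv4-74 had 53.9 and 56.4 in WT against 22.4 and 27.2 in Dido1∆E16 pools (log2 fold change -1.13, SE 0.17, adjusted p = 0.23 by limma). Igkv14-126 had 57.7 and 71.5 in WT against 35.9 and 23.3 in Dido1∆E16 pools (log2 fold change -1.12, SE 0.28). Igkv4-90 had 9.56 and 10.1 in WT against 5.92 and 2.30 in Dido1∆E16 pools. The low pseudogene Igkv4-83 had 4.16 and 1.48 in WT and was listed at 0 in both Dido1∆E16 libraries. Chosen after the values were seen, the more abundant Igkv10-96 had 137 and 190.3 in WT against 81.0 and 76.4 in Dido1∆E16 pools (log2 fold change -1.03, SE 0.21, adjusted p = 0.31 by limma), and Igkv3-2, of the same family as Igkv3-12, had 143 and 172 against 93.6 and 99.4. None of these passed the adjusted threshold.

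To compare segments with the level of the locus taken out, each segment was expressed as a percent of the summed Igkv value of its library. By the measures of concentration below, the genotypes differed by more than the replicates, with fewer segments holding more of the Igkv RNA in Dido1∆E16 cells. The 10 highest segments of each library held 30.7% and 30.7% of Igkv RNA in WT against 35.2% and 34.9% in Dido1∆E16 pools (30.7 ± 0.060% against 35.0 ± 0.18%, mean ± SD, n = 2 each, exact permutation p = 0.33). The 5 highest held 19.7% and 19.5% in WT against 22.1% and 22.1% in Dido1∆E16 pools. The effective number of segments, the exponential of the Shannon index, was 69.7 and 69.7 in WT against 65.0 and 65.0 in Dido1∆E16 pools. In all of these the replicates lay close together and the genotypes apart. Heavy chain V segments, measured the same way, gave a difference of the same sign with a wider spread: their 10 highest held 29.6% and 27.1% in WT against 31.3% and 32.0% in Dido1∆E16 pools, and their effective number was 73.2 and 78.5 against 70.4 and 69.0.

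**Figure D2:**
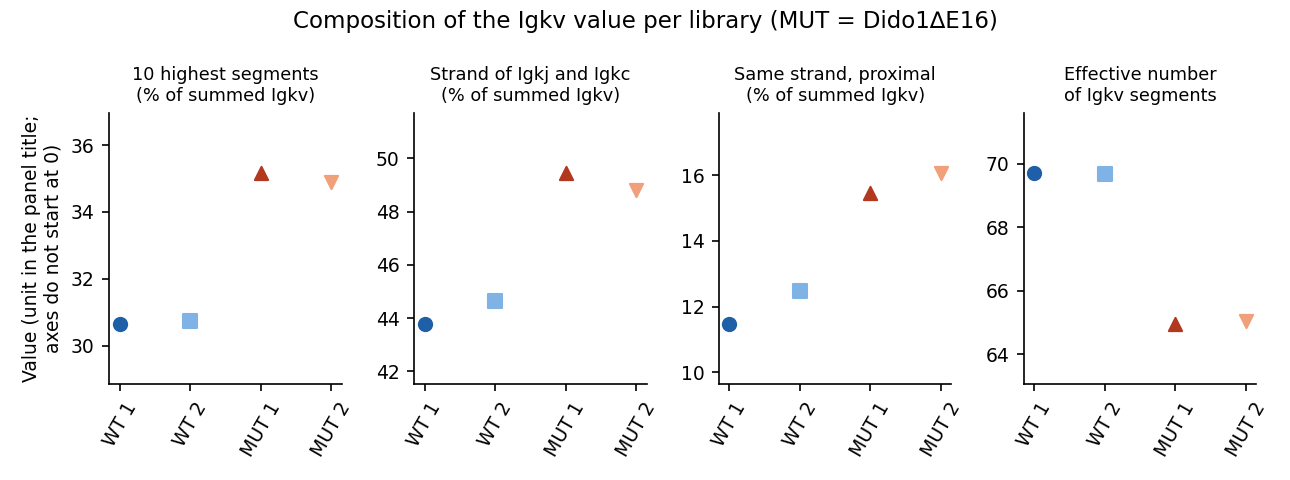
From left to right, percent of summed Igkv RNA in the 10 highest segments of each library, percent on the strand of Igkj and Igkc, percent on that strand within the proximal window, and effective number of Igkv segments, with 1 point per library (MUT is Dido1∆E16); the axes do not start at 0. In each panel both Dido1∆E16 libraries lie apart from both WT libraries, with 35.2% and 34.9% against 30.7% and 30.7% for the 10 highest segments.

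By share, 36 of 101 segments were below both WT libraries in both Dido1∆E16 libraries and 20 of 101 were above. With any 1 library left out, which makes it easier not to overlap, these counts were 44 to 49 and 31 to 32. When all features are divided in the same way, 5.18% lie below and 40.8% above with all 4 libraries. This is because the divisor is smaller in Dido1∆E16 libraries and raises features outside the locus. These shares do not apply to the counts with 1 library left out. The 20 segments above WT summed to 23.1% and 24.2% of Igkv RNA in WT against 31.4% and 32.1% in Dido1∆E16 pools. The 36 below WT summed to 37.2% and 36.3% in WT against 28.9% and 29.0% in Dido1∆E16 pools. These sums were chosen by their own values and describe the size of the shift only. Between pairs of single libraries, the SD of the log2 share ratio over the 34 segments of high level was 0.257 for the WT replicates, 0.125 for the Dido1∆E16 replicates and 0.323 to 0.427 for the 4 pairs of unlike genotype. Over the 99 segments above 0 in every library it was 0.413, 0.426 and 0.448 to 0.585.

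Higher shares in both Dido1∆E16 libraries were found for 4 of the abundant segments at the ends of the locus and for others between them. Among these others was Igkv5-43, also 1 of the 10 highest but not on the strand of Igkj and Igkc. Its difference was small, with 2.22% and 2.16% in Dido1∆E16 libraries against 2.15% in WT replicate 1, the higher WT library. Igkv3-12 went from 1.68% and 2.24% in WT to 3.79% and 3.94% in Dido1∆E16 libraries, a ratio of means of 1.97. Igkv3-7 went from 1.60% and 2.06% to 3.03% and 3.33%, a ratio of 1.74. Igkv1-135, the most abundant, went from 6.62% and 6.89% to 8.12% and 8.15%, and Igkv2-137 from 2.35% and 2.34% to 3.00% and 3.33%. In each of these 4 the replicates lay closer to each other than the genotypes did. Of the segments picked after their values were seen, Igkv3-10 went from 1.31% and 1.55% to 2.01% and 1.93%, Igkv4-92, in the middle of the locus, from 0.66% and 0.75% to 1.06% and 1.20%, and Igkv10-96, also in the middle, from 1.79% and 1.78% down to 1.14% and 1.13%.

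**Figure D3:**
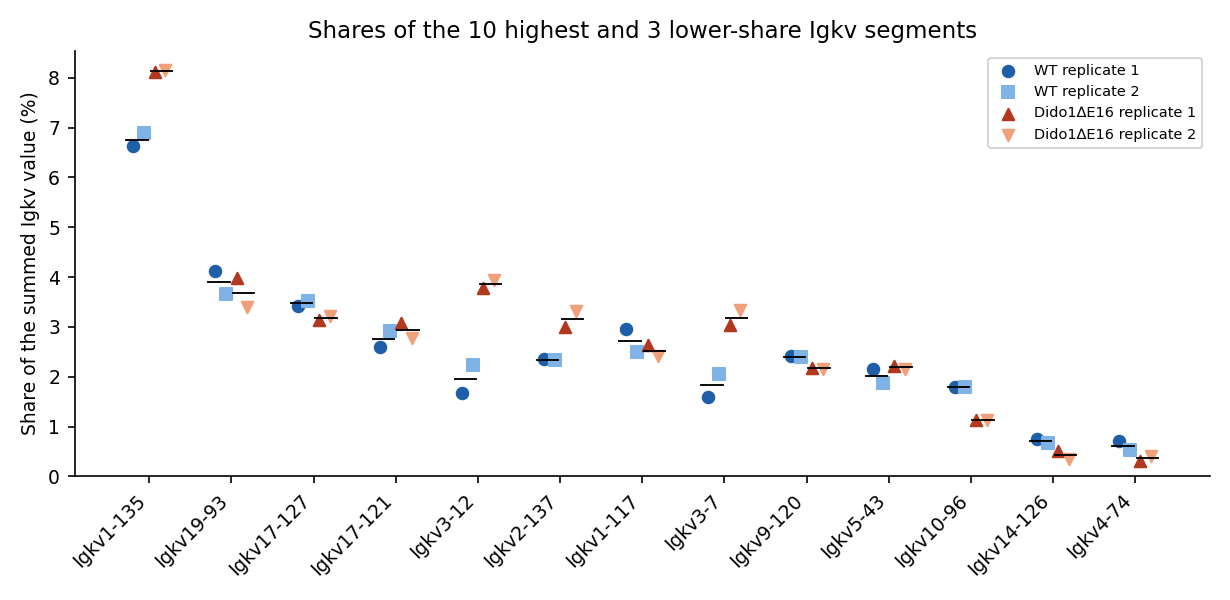
Percent of summed Igkv RNA held by the 10 highest Igkv segments and by Igkv10-96, Igkv14-126 and Igkv4-74, with 1 point per library and a bar at the mean of each genotype (n = 2). Igkv3-12 and Igkv3-7 lie higher in both Dido1∆E16 libraries, at 3.79% and 3.94% and at 3.03% and 3.33%, and the last 3 segments lie lower.

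Reads of near-identical V segments can be split or lost by the aligner. This was examined by counting the 50-base words of each segment that occur in another Igk segment with an exon line. Segments without a line and the rest of the genome were not searched, so a segment that shared no word need not map uniquely. Of 98 segments assessed, 72 shared at least 1 word and 16 shared over 50%. Igkv3-10 (59.4%), Igkv3-12 (57.0%) and Igkv3-7 (37.5%) were among those that share words, so how their reads are divided within the family is uncertain. Igkv2-137, Igkv4-92, Igkv14-126 and Igkv19-93 shared none. The 26 segments without a shared word had a median log2 fold change of -0.48, and those with shared words a median of -0.42. Of the 26, 11 were below WT by share (all features divided in the same way 5.18%) and 5 above (all features 40.8%).

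By family, the shares went different ways. Of 19 families, 3 held a larger share of Igkv RNA in each Dido1∆E16 pool than in either WT pool, 6 a smaller one, and 10 overlapped. Of all features divided in the same way, 40.8% lay above and 5.18% below. Whether these counts of families differ from what the order of 4 libraries gives was not tested. The Igkv3 family, whose 10 tested segments all lie on the J strand of the proximal window, held 8.58% and 9.75% in WT against 12.6% and 13% in Dido1∆E16 pools. Igkv2 held 2.97% and 2.94% against 3.67% and 3.97%, and Igkv1 held 14.8% and 14.5% against 15.6% and 15.4%. Without Igkv1-135, the other 7 Igkv1 segments held 8.22% and 7.59% in WT against 7.51% and 7.23% in Dido1∆E16 pools, below WT. Igkv3 without Igkv3-12 and Igkv3-7 held 5.30% and 5.45% against 5.75% and 5.70%, and Igkv2 without Igkv2-137 held 0.627% and 0.607% against 0.667% and 0.645%. Igkv4, the largest family with 33 segments, of which 32 were tested, held 22.02% and 20.5% in WT against 19.3% and 19.6% in Dido1∆E16 pools. Igkv10 held 2.68% and 2.72% against 1.91% and 1.57%, and Igkv12 held 4.30% and 4.27% against 3.47% and 3.46%. Igkv9, Igkv11 and Igkv18 were the other families below WT, and Igkv11 and Igkv18 hold 1 segment each. Each of these differences has the exact permutation p of 0.33 that the design allows at best.

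The locus was next divided by position into 3 windows of equal width. The median log2 fold change was -0.43 over the 23 distal segments, -0.55 over the 37 middle ones and -0.34 over the 41 proximal ones, those nearest to Igkj1. Lower in Dido1∆E16 cells were 22 of 23 distal, 36 of 37 middle and 32 of 41 proximal segments (all features 44.9%). Both Dido1∆E16 values lay below WT in 14, 27 and 17 of them (all features 16.2%). Proximal and distal medians differed by 0.08, and with the median taken within each library first, proximal minus distal was 0.07 and 0.23 in WT against -0.16 and 0.03 in Dido1∆E16 pools, a difference of the opposite sign. No gradient along the locus can be read from these values. By share, the distal window held 33.3% and 32.7% of Igkv RNA in WT against 34.4% and 33.3% in Dido1∆E16 pools, and the proximal window 36.3% and 39.6% against 38.8% and 40.8%, both overlapping. The middle window held 30.4% and 27.7% in WT against 26.8% and 25.9% in Dido1∆E16 pools, below WT in both.

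By strand, the shares of the genotypes did not overlap. Segments on the strand of Igkj and Igkc, which join by deletion, held 43.8% and 44.6% of Igkv RNA in WT against 49.4% and 48.8% in Dido1∆E16 pools (44.2 ± 0.60% against 49.1 ± 0.45%, mean ± SD, n = 2 each, exact permutation p = 0.33). Of these, the 4 abundant segments Igkv1-135, Igkv2-137, Igkv3-7 and Igkv3-12, singled out after their values were seen, held 12.3% and 13.5% in WT against 17.9% and 18.7% in Dido1∆E16 pools. The other 31 segments of the strand held 31.5% and 31.1% against 31.5% and 30.03%, which overlap. The median log2 fold change was -0.28 over the 35 segments on this strand and -0.51 over the 66 on the other, which join by inversion. On the same and the other strand, 29 of 35 and 61 of 66 segments were lower in Dido1∆E16 cells (all features 44.9%). Both Dido1∆E16 shares were above WT in 11 of 35 and 9 of 66 segments (all features divided in the same way 40.8%). They were below WT in 10 of 35 and 26 of 66 (all features 5.18%). The medians within libraries showed less of this: same strand minus other strand was 0.33 and 0.46 in WT against 0.42 and 0.48 in Dido1∆E16 pools, which overlap. The medians weight every segment equally, while the shares weight segments by level.

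Position and strand overlap closely in this locus, since 21 of the 23 distal segments lie on the J strand and 36 of the 37 middle segments on the other. Only the proximal window holds a fair number of each. Within it, the 13 segments on the J strand had a median log2 fold change of -0.11 and held 11.5% and 12.5% of Igkv RNA in WT against 15.5% and 16.1% in Dido1∆E16 libraries. Without Igkv3-12 and Igkv3-7, the other 11 held 8.199% and 8.169% against 8.65% and 8.76%. The 28 on the other strand had a median of -0.51 and held 24.8% and 27.1% against 23.3% and 24.8%. Both Dido1∆E16 shares were above WT in 7 of the 13 and in 4 of the 28. Over all tested Igkv segments it was 20 of 101, and over all features divided in the same way 40.8%. The distal segments on the J strand held 31.9% and 31.7% in WT against 33.4% and 32.4% in Dido1∆E16 pools, a smaller difference. Igkv3-12 and Igkv3-7 are both on the J strand of the proximal window, so the family, the strand and these segments cannot be told apart.

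**Figure D4:**
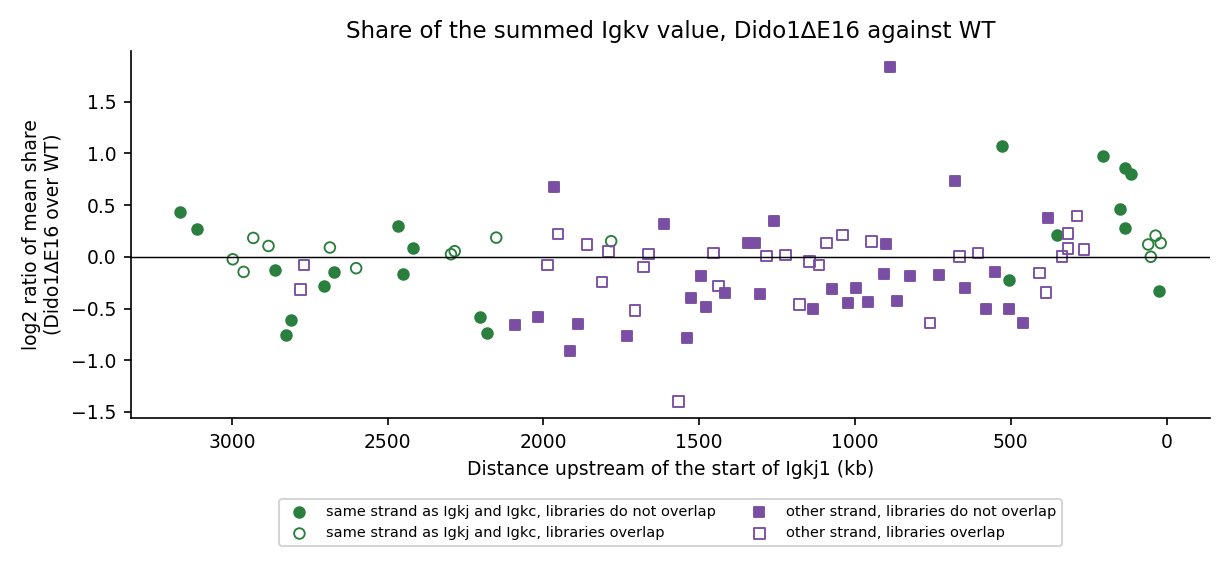
Log2 ratio of the mean share of Igkv RNA in Dido1∆E16 to that in WT libraries against distance upstream of Igkj1 in kb, for 100 segments marked by strand and filled where the libraries of the genotypes do not overlap; Igkv4-83, listed at 0 in both Dido1∆E16 libraries, is left out. Segments of both strands lie on either side of 0. The high points include segments of low level, Igkv3 segments near the J end, and Igkv4-92, of middle level at 1967 kb.

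By level, segments were split into 34 high, 33 middle and 34 low ones by their mean over the 4 libraries. Median log2 fold changes were -0.39, -0.63 and -0.27, and no order by level was seen. Shares above WT were found in 10 of 34 high, 2 of 33 middle and 8 of 34 low segments (all features divided in the same way 40.8%). Shares below WT were found in 12, 16 and 8 (all features 5.18%). The 9 tested pseudogenes summed to 207 and 301 in WT against 191 and 199 in Dido1∆E16 pools, and their part of Igkv RNA was 2.71% and 2.82% against 2.71% and 2.96%, which overlap.

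At the J and C end, Igkc RNA was the most abundant of the locus. Its exon line (chr6:70726435-70726966, 532 bp) stood at 6447 and 8782 in WT against 6209 and 6064 in Dido1∆E16 pools, below WT in both (log2 fold change -0.29, SE 0.22, adjusted p = 0.71 by limma). Igkj2 stood at 1974 and 2452 in WT against 1815 and 1493 in Dido1∆E16 pools, also below WT (log2 fold change -0.42, SE 0.19, adjusted p = 0.64 by limma). Igkj4, with 1372 and 1937 against 1723 and 1423, and Igkj5, with 2262 and 3731 against 2730.0 and 2337, overlapped between the genotypes. None of the 4 Igkj segments or Igkc was called. Without WT replicate 2 the log2 fold change of Igkc was -0.07, that of Igkj2 was -0.26, and those of Igkj4 and Igkj5 were 0.19 and 0.16. The lines of Igkj2, Igkj4 and Igkj5 are only 42, 43 and 39 bp long.

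Igkj1 was not measured alike. Its line (chr6:70722230-70722601, 372 bp) starts far upstream of the 38 bp J segment. It also covers upstream sequence that joining by deletion removes and joining by inversion keeps in the allele. Its level is therefore not comparable with the other J lines. It stood at 350.4 and 543 in WT against 413 and 312 in Dido1∆E16 pools, which overlap. Among Igkj2, Igkj4 and Igkj5 together, Igkj2 held 35.2% and 30.2% in WT against 29.0% and 28.4% in Dido1∆E16 pools. Igkj4 held 24.5% and 23.9% against 27.5% and 27.1%, and Igkj5 40.3% and 45.9% against 43.6% and 44.5%. Igkj2 was thus below WT and Igkj4 above WT in both Dido1∆E16 libraries, while Igkj5 overlapped.

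Another exon line (chr6:70718902-70719377, 476 bp) ends 3185 bp before Igkj1, where germline kappa transcripts of unjoined alleles start. Outside the composites, 2 deposited transcripts hold it: 1 joins it to Igkc and was listed at 0 in all libraries, and the other, whose further exons lie past Igkc at levels of at most 18.1, received all of its coverage. Its value was 705 and 948 in WT against 968 and 772 in Dido1∆E16 pools, which overlap (exact permutation p = 0.667). Relative to Igkc it was 0.109 and 0.108 in WT against 0.156 and 0.127 in Dido1∆E16 pools, above WT in both (exact permutation p = 0.33). Summed Igkv over Igkc was 1.18 and 1.22 in WT against 1.15 and 1.12 in Dido1∆E16 pools, slightly below WT in both. Summed Igkj over Igkc was 0.924 and 0.986 against 1.08 and 0.918, which overlap.

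**Figure D5:**
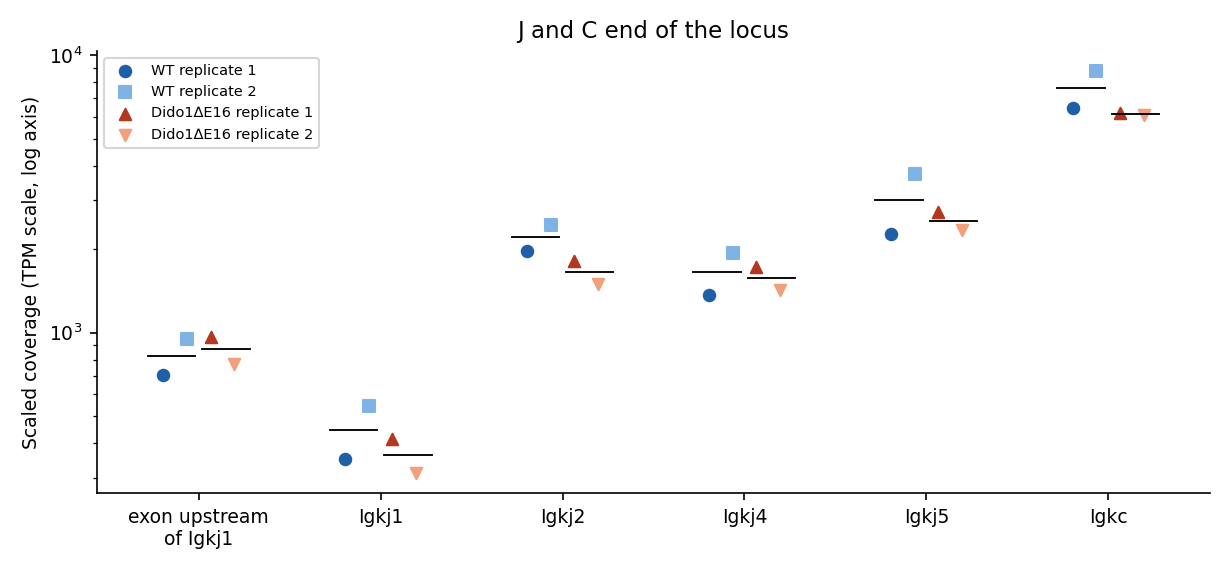
Level of the exon line upstream of Igkj1, of Igkj1, Igkj2, Igkj4 and Igkj5, and of Igkc (scaled coverage on the TPM scale, log axis), with 1 point per library and a bar at the mean of each genotype (n = 2). Igkj2 and Igkc are below WT in both Dido1∆E16 libraries, and the others overlap.

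Sequence features that the choice of segments did not use were compared between segments with a higher and a lower share in Dido1∆E16 cells. A recombination signal was found at the annotated end of 97 of 101 segments, and 34 of these 97 (35.1%) had the consensus in both parts, CACAGTG and ACAAAAACC after a spacer of 12 bases. Of the segments above WT by share, 7 of 19 with a signal (36.8%) had the full consensus, and of those below WT 10 of 35 (28.6%). Igkv3-12 and Igkv3-7, printed above, have it, and so does Igkv4-74, whose share was lower. Igkv1-135 differs from it in the nonamer, Igkv4-90 in the heptamer, and Igkv10-96 and Igkv14-126 in both. The heptamer alone matched in 86 of 97 segments, in 16 of 19 above WT and in 29 of 35 below WT. The octamer ATGCAAAT, bound by Oct factors in immunoglobulin promoters, was found on either strand within 250 bases upstream of 71 of 101 segments (70.3%), against 1.61% of 27025 RefSeq promoters of the same length. It was present in 13 of 20 segments above WT (65.0%) and 25 of 36 below WT (69.4%). Neither feature is a measure of joining or of binding.

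Genes that act on the locus were examined as sums of their transcripts in 4 lists. Of 55 members 48 were tested, and none was called, where 0.0669% of all 11951 gene sums were called. At an unadjusted p under 0.05, 9 of 48 passed, against 12.4% of all gene sums. Of 18 transcription and looping factors, 8 were higher and 10 lower, with a median log2 fold change of -0.03. Brwd1, a chromatin reader that opens the J region, had 98.1 and 95.5 TPM in WT against 47.9 and 51.0 in Dido1∆E16 pools (log2 fold change -0.96, SE 0.13, adjusted p = 0.16 by limma). Ikzf3, the Ikaros family factor Aiolos, had 355 and 371 TPM in WT against 481 and 584 in Dido1∆E16 pools (log2 fold change 0.55, adjusted p = 0.30 by limma). In both genes the groups did not overlap. The replicates were close for Brwd1, while the Dido1∆E16 values of Ikzf3 lay nearly as far apart as the lower of them lay from WT. Both Dido1∆E16 values lay below WT in 8 of the 18 factors (all gene sums 16.5%) and above in 3 (all gene sums 26.8%).

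Of 12 recombination and end-joining genes, 7 were higher and 5 lower. Rag1, a subunit of the recombinase, overlapped with 831 and 696 TPM in WT against 754 and 779 in Dido1∆E16 pools. Dntt, which adds bases at joins and is typical of earlier stages, had 48.7 and 7.18 TPM in WT against 191 and 96.0 in Dido1∆E16 pools (log2 fold change 2.76, SE 0.97, adjusted p = 0.38 by limma). Nhej1, an end-joining factor, had 25.4 and 21.4 TPM in WT, 17.6 in Dido1∆E16 replicate 1 and was listed at 0 in replicate 2.

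The surrogate light chain, which pairs with the heavy chain before kappa is made, had the largest median log2 fold change of the 4 lists, 3.09. Vpreb1 had 108 and 40.9 TPM in WT against 1222 and 738 in Dido1∆E16 pools (log2 fold change 3.81, SE 0.55, adjusted p = 0.17 by limma). Vpreb2 had 27.1 and 8.76 TPM in WT against 382 and 168 in Dido1∆E16 pools (log2 fold change 3.94, adjusted p = 0.19 by limma). All 4 tested members of this list were higher, and 7 lambda light chain genes had no transcript paired with their symbol. Of 14 pre-BCR and IL-7 signalling genes, 10 were higher and 4 lower. Ccnd2, a G1 cyclin, had 8.56 and 6.85 TPM in WT against 36.1 and 27.1 in Dido1∆E16 pools (log2 fold change 1.90, adjusted p = 0.16 by limma), and Stat5a, which transmits the IL-7 signal, had 32.2 and 31.8 against 52.7 and 55.3 (log2 fold change 0.74, adjusted p = 0.20 by limma). Of the genes in these lists, Dntt, Igll1, Vpreb1 and Vpreb2 are also among the pro-B and large pre-B markers given above, and their part in the Igk values was not tested.

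Accessibility of the locus could be seen only in earlier cells, LSK stem and progenitor cells (lineage-, Sca1+, c-Kit+) of the same genotypes, by ATAC-seq peaks called per library. From the first V segment to 30 kb past Igkc, WT libraries had 13 and 32 peaks, and Dido1∆E16 libraries 6 and 4. The libraries differed likewise in all peaks, with 27352 and 57739 in WT against 13208 and 16329 in the Dido1∆E16 libraries, so that the locus held 0.0475% and 0.0554% of WT peaks and 0.0454% and 0.0245% of Dido1∆E16 peaks. In the intron between J and C, where the intronic kappa enhancer lies, 3 libraries had a peak. The 260 bases that these 3 peaks share are shown, since this enhancer is a control element of kappa transcription and joining.
Shared part of the intronic peaks, chr6:70725734-70725993, + strand: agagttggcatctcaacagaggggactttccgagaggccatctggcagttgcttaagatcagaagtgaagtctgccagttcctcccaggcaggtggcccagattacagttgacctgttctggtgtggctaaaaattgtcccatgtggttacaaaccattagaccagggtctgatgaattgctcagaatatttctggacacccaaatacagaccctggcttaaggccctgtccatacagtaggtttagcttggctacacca
The MACS2 scores here were 34 and 31 for the WT peaks and 26 for the peak of Dido1∆E16 replicate 1, and none was called in Dido1∆E16 replicate 2. With so few peaks and unequal totals, no difference at this site was tested.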

How the data were processed

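Pre-B cell RNA-seq from 4 pools, 2 per genotype, was analysed. The authors aligned reads to mm10 with BWA-MEM 0.7.15, which does not splice, removed duplicates, which can compress very high coverage on short lines, and quantified UCSC known genes with StringTie. Deposited are coverage, FPKM and TPM per transcript and coverage per exon line, without counts, as made by the authors. Strand of the libraries is not given in the sources used here, so antisense RNA cannot be told apart. LSK ATAC-seq peaks carry a score that the authors' MACS2 run gave. The deposited edgeR and HOMER tables hold the authors' fold changes and p-values and were not used, nor were HOMER peaks.

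Segments were named by GENCODE vM21 on the same strand, and composites of Igh and Igk were replaced by segments. Log2(TPM + 1) of 16742 features with a mean of at least 1 was fitted by genotype with limma 3.58.1 (R 4.3.3; eBayes with trend, Benjamini-Hochberg), where fold changes of low features are understated. The fit was tested on simulated data. Symbols were paired by at least 50% of exonic bases with bedtools 2.31.1 (96.2% of 16369 transcripts). Sequences were read from the mm10 genome and RefSeq promoters. Python 3.11.15 was used with scipy 1.17.1, numpy 2.4.6, pandas 2.3.3 and matplotlib 3.10.9.

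Members, lists and tests were chosen with earlier results of these data known. Named are Igkc, each Igkj, the 10 highest Igkv segments, the first and last, the 4 largest rises and falls without overlap (3 rises were found), and the 2 smallest p of each pathway list. Igkv10-96, Igkv4-92, Igkv3-10, Igkv3-2, Rag1 and the shares per segment and family, J ratios, sequences and peaks were added after the values were seen. Alternatives were another pseudocount, no filter, median centring, single exon lines, no trend, a replicate block, FPKM, scaling by summed coverage, other classes, division by summed Igkv, and each library left out.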

Additional observations from a re-analysis of the deposited data

How the results depend on the processing

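No Igk segment and no pathway gene was called under any alternative run. This includes the replicate block (Igkv median log2 fold change -0.43, 0 calls over all features). The labels do not say that same-numbered libraries belong together. Their deviations from the genotype means had a correlation of 0.0712. With 2 libraries per genotype these deviations mirror each other, so this value cannot show whether the numbers mark a batch. Replicate 2 was the shallower library in both genotypes, with more neutrophil, monocyte and erythroid marker RNA. Calls over all features were 49, and 14 without the filter on low values, 26 with a pseudocount of 0.1, 113 without the trend, 0 without either WT library, and 525 and 545 without Dido1∆E16 replicates 1 and 2; in those 4 fits the lone library is assumed to vary like the other genotype. The sign of the Igkv median held in every alternative, but its size did not: division by the summed Igkv value, chosen after seeing the data, gave -0.058 with 54 segments lower, and leaving out each library gave -0.65 to -0.19 with 72 to 96 lower. That division also reversed Igkc to 0.081, Igkj1 to 0.095, Igkj4 to 0.32, Igkj5 to 0.17, Igkv1-135 to 0.27, Igkv17-121 to 0.091, Igkv5-43 to 0.12 and Igkv3-1 to 0.12, and median centring reversed Igkv2-137 to -0.060. Leaving out each library moved Igkc from -0.52 to -0.071, Igkj1 from -0.60 to 0.036, Igkj4 from -0.31 to 0.19, Igkj5 from -0.56 to 0.16, Igkv1-135 from -0.38 to 0.16, Igkv17-121 from -0.61 to 0.045 and Igkv2-137 from -0.18 to 0.29. Igkj1, Igkj4, Igkj5, Igkv1-135 and Igkv17-121 turned without WT replicate 2, Igkj4 also without Dido1∆E16 replicate 2, and Igkv2-137 without WT replicate 1. The high-minus-low difference of medians was -0.12, and -0.087 with single exon lines, -0.15 with classes by the WT mean, 0.031 with classes from WT replicate 1 tested against WT replicate 2, and -0.12 to 0.011 leaving out each library. Proximal minus distal was 0.08 (-0.067 to 0.16 leaving out each library), and same minus other strand 0.23 (0.16 to 0.24). The share in the 10 highest segments was 4.33 percentage points higher in Dido1∆E16 libraries (4.20 to 4.46 leaving out each library, and 4.91 with bases in place of levels per length). Read counts were not part of these files, so the limit that depth sets on low segments is unknown, and the causes of these changes were not tested.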
